A study of Zea mays with 24 samples.

Results

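Leaves of a maize line that overexpresses *ZmNF-YB16* were compared under drought and under normal watering, using 4 of the 24 libraries of the series. The members were the libraries titled for stress or control *ZmNF-YB16* OE, with 2 libraries per condition. The line is a single transgenic line in the inbred B104, and the wild type B104 was sequenced under the same conditions in 2 normal and 2 drought libraries. By the study's description all 4 groups thus share the B104 background, which was not checked here. The groups differ in the transgene and in watering only as far as the labels say. The labels place the leaves at the V4 stage, with RNA taken up in Trizol. The study's supplementary methods instead describe ear leaves of field-grown plants some days after pollination, with soil water kept low from the pollination stage on, and with RNA extracted by another method. The stage of the leaves is therefore uncertain. According to the same methods, each library pooled leaves of several plants. The promoter of the transgene and the time of day of sampling are not given in the sources used here. The comparison shows which transcripts change with drought in a line made to overexpress NF-YB16, and the B104 libraries show where that response differs from the wild type.

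Maize is a C4 plant. Mesophyll cells fix carbon with phosphoenolpyruvate carboxylase and pass it to bundle sheath cells, where the Calvin cycle runs. In a leaf short of water, the hormone abscisic acid closes stomata and induces protective proteins such as dehydrins. Prolonged drought also brings on senescence, in which chlorophyll, proteins and lipids are broken down and their nitrogen and carbon are moved out of the leaf. NF-Y transcription factors are trimers of an NF-YA, an NF-YB and an NF-YC subunit that bind CCAAT boxes, and in plants each subunit is encoded by a gene family.

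Read depth was similar in the 4 libraries. Expected counts, the reads that RSEM assigned to each gene, summed to 5608889 and 4615870 in the normal libraries and to 5482892 and 5162299 in the drought libraries, and 27066 to 27516 genes were listed per library. Fewer counts fell on the 10 leading genes under drought, 4.88% and 4.77%, than under normal conditions, 8.21% and 8.07%. The sources used here paired no ID with *ZmNF-YB16*, so its overexpression was not checked. Leaf identity was clear from the summed CPM, normalized counts scaled to a common library total, of mesophyll markers, which reached 43399 and 42857 in the normal libraries. Root markers summed to 734 and 724 CPM under normal conditions and 1229 and 1165 under drought. Seed and pollen markers were low. Those of embryo summed to between 15.96 and 20.37 CPM, those of pollen to between 93.67 and 110, and those of endosperm fell from 164.9 and 162.4 to 67.24 and 66.62, with 3 of 5 endosperm, 3 of 8 embryo and 5 of 15 pollen markers at or below 3 counts in every library. Markers of dividing cells summed to 3048 and 3055 CPM under normal conditions and to 3099 and 3019 under drought. Of the seed storage genes tested 3 of 5 were lower and 0 higher, of the pollen allergen genes 2 of 8 were lower and 1 higher, and of the 2 guard cell genes 0 changed. The part of these markers in the results was not tested.

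Drought changed 5088 of the 21970 genes tested, by the cutoffs of more than 2-fold in either direction and an adjusted P under 0.05 (edgeR's quasi-likelihood test). Of these DEGs, 2479 were higher under drought (11.3% of genes tested) and 2609 were lower (11.9%). A change of 4-fold or more was seen in 980 of the higher and 806 of the lower genes. Drought and normal libraries did not overlap in 2470 of the 2479 higher and in 2592 of the 2609 lower DEGs, against 74.3% of all genes tested. The split depends on scaling. When counts were scaled by library size alone, the median of all genes moved up by 0.252 on the log2 scale and 64.9% of the calls were higher, against 48.7% with TMM scaling, and falls just past 2-fold then missed the cutoff. The plot of calls by gene list sets the members called in each list against the share over all genes.

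**Figure D1:**
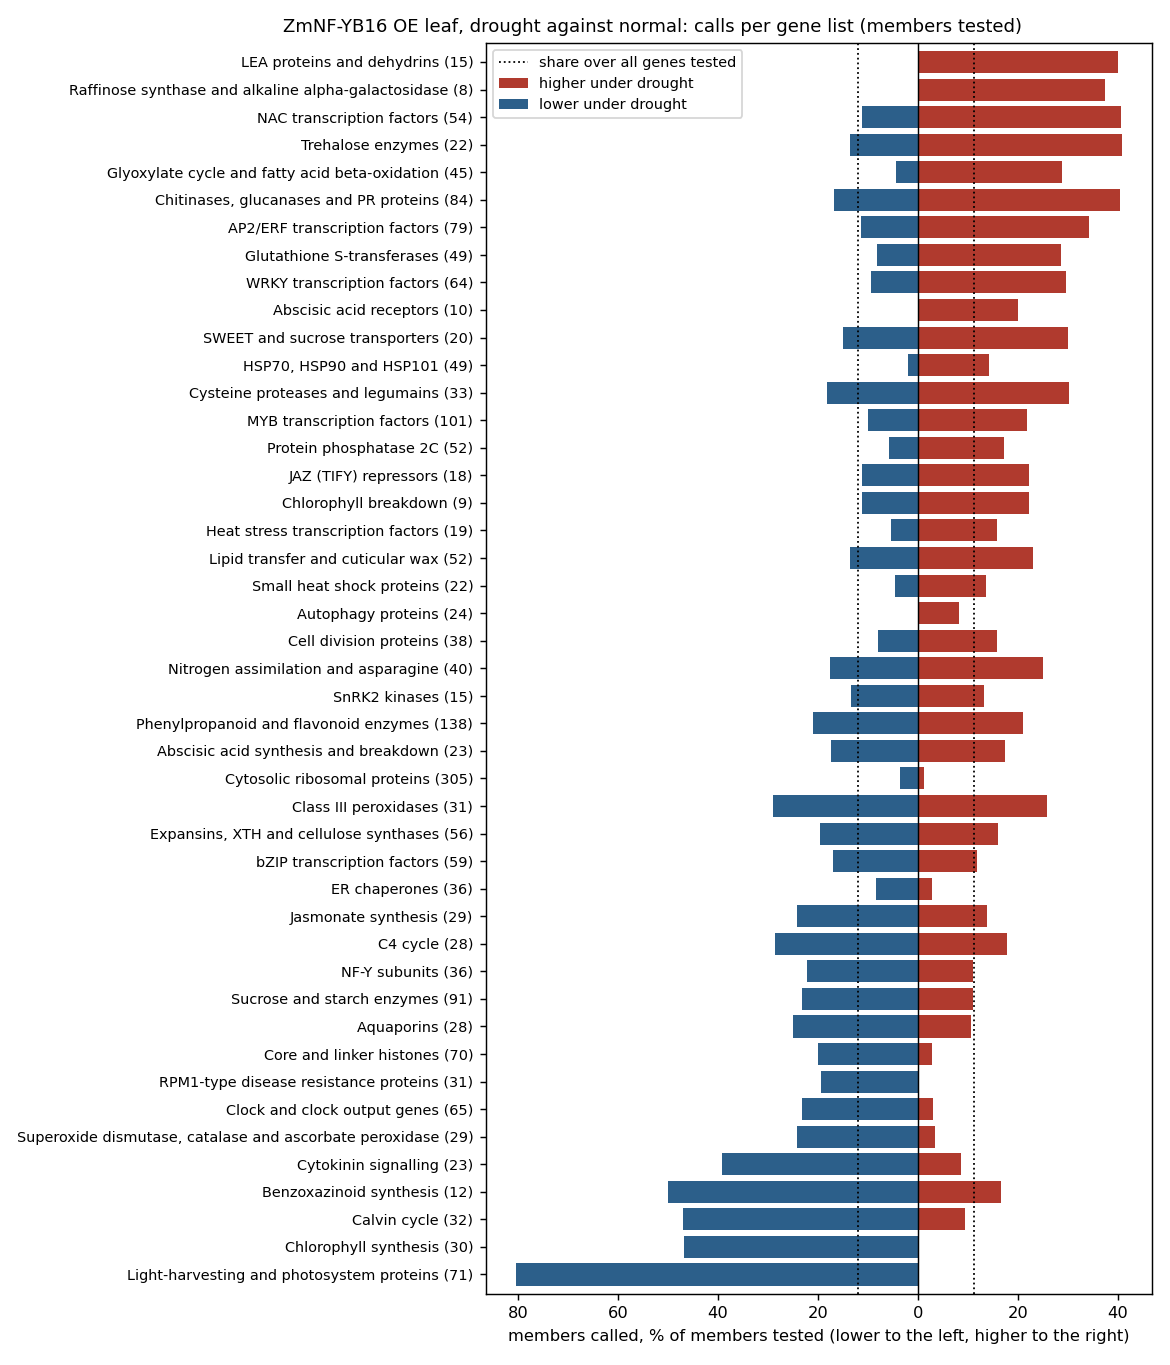
Bars give the percentage of tested members of each gene list that were called higher (right) or lower (left) under drought in *ZmNF-YB16* OE, with the number tested in brackets and dotted lines at the shares over all genes, 11.3% and 11.9%. Light-harvesting and photosystem genes reached 80.3% lower and 0% higher, whereas PR proteins, NAC factors and trehalose enzymes had 40.5%, 40.7% and 40.9% of their members higher.

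Photosynthesis genes fell together. Of 71 light-harvesting and photosystem genes tested, out of 78 listed, 57 were lower and 0 higher, with a median log2 fold change of -1.70 against 0.0039 over all genes. These proteins capture light and carry electrons in the thylakoid. The chlorophyll a/b-binding protein gene *lhcb7* (GRMZM2G402936) went from 6347 and 6091 CPM to 1786 and 1561, a log2 fold change of -1.89 ± 0.0379 (SE, n = 2 libraries per group, edgeR adjusted P = 2.73e-19). GRMZM2G175562, for a protein of the oxygen-evolving complex, fell from 3484 and 3356 to 1245 and 1079 CPM. In both genes every drought library was below every normal library by more than the spread of the pairs. Summed over the list, the level went from 80392 and 78602 CPM to 25816 and 23795. Such sums cannot separate less RNA per cell from fewer cells of a type, which holds for every result on these bulk leaves.

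The most abundant transcripts of the C4 cycle fell as well. *pep1* (GRMZM2G083841), the C4 phosphoenolpyruvate carboxylase, had 18486 and 18139 CPM under normal conditions and 2176 and 2038 under drought, 8.69-fold lower (log2 fold change -3.12 ± 0.0208, edgeR adjusted P = 7.01e-27). *pdk1* (GRMZM2G306345), pyruvate orthophosphate dikinase, which regenerates the acceptor of this enzyme, went from 16999 and 16594 to 5134 and 5142 CPM. GRMZM2G001696, a phosphoenolpyruvate carboxykinase, a decarboxylase of the C4 pathway, dropped 7.09-fold from 6045 and 5960 to 872 and 822 CPM. Other genes of the cycle moved up, and the list of 28 tested genes had 8 lower and 5 higher members. The carbonic anhydrase gene GRMZM2G414528 rose from 194 and 203 to 578 and 619 CPM, and *pep7* (GRMZM2G069542), another phosphoenolpyruvate carboxylase gene, from 32.9 and 32.2 to 152 and 157. The genes that rose stood far below those that fell, and the list summed to 54113 and 53397 CPM before and 15203 and 14948 under drought. Its median was -0.16, and 0.09 with scaling by library size alone.

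Calvin cycle genes showed 15 of 32 tested members lower and 3 higher, with a median log2 fold change of -0.70. *gpb1* (GRMZM5G845611), a subunit of the chloroplast glyceraldehyde-3-phosphate dehydrogenase, went from 6497 and 6433 to 1489 and 1422 CPM (log2 fold change -2.15 ± 0.0227, edgeR adjusted P = 9.89e-24). The Rubisco small subunit gene *rbcS* (GRMZM2G098520) fell 3.35-fold, from 1766 and 1759 to 553 and 499 CPM. Against this, a pair of ribose-5-phosphate isomerase genes rose from low levels, GRMZM5G891282 from 8.04 and 9.49 to 35.8 and 33 CPM and GRMZM2G035599 from 5.17 and 4.4 to 28.2 and 26.1. Taken by cell type, mesophyll markers summed to 9861 and 9764 CPM under drought and bundle sheath markers to 5855 and 5618, the latter down from 8811 and 8701. Both sums thus fell, the mesophyll sum by more, but *pep1* and *pdk1* made up most of the mesophyll sum. By members, 7 of 21 mesophyll markers tested were lower and 4 higher, against 6 of 11 lower and 1 higher for bundle sheath.

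Chlorophyll synthesis was lower at 14 of 30 genes and higher at 0, with a median of -1.01. Among them were the magnesium chelatase gene *oy1* (GRMZM2G419806), at the branch point to chlorophyll, from 306 and 297 to 71.5 and 57.3 CPM, and GRMZM2G323024, another subunit of the chelatase, from 948 and 975 to 238 and 234. The breakdown pathway moved in part the other way. *lls1* (GRMZM2G339563), pheophorbide a oxygenase, which opens the chlorophyll ring, rose 4.99-fold from 134 and 128 to 661 and 651 CPM (log2 fold change 2.32 ± 0.0491, edgeR adjusted P = 6.68e-19). GRMZM2G170013, a chlorophyll b reductase, rose from 48.5 and 42.6 to 172 and 178 CPM. A further gene annotated as pheophorbide a oxygenase, GRMZM2G349062, fell from 491 and 451 to 225 and 223 CPM, short of the 2-fold cutoff when scaled by library size alone. Hence 2 of 9 breakdown genes were higher and 1 lower, and the median of -0.22 became 0.03 under that scaling.

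Genes of protein breakdown included some of the strongest transcripts of the stressed leaf. Of 33 cysteine protease and legumain genes, 10 rose and 6 fell, and the list summed to 3271 and 3226 CPM under normal conditions and 11078 and 10822 under drought. *mir3* (GRMZM2G166281), a cysteine protease, rose 5.96-fold from 1005 and 988 to 6007 and 5879 CPM. *see2b* (GRMZM2G093032), a legumain or vacuolar processing enzyme known from senescing maize leaves, rose from 242 and 247 to 1379 and 1355 CPM (log2 fold change 2.48 ± 0.0359, edgeR adjusted P = 1.57e-21). The related protease GRMZM2G130053 went down, from 98.8 and 101 to 36.1 and 33.5 CPM. Autophagy genes were mostly below the cutoffs, with 2 of 24 higher (8.33%) and 0 lower. This list, and those for proteases, nitrogen, the glyoxylate cycle, raffinose, SWEET genes, the clock, cytokinin, benzoxazinoids, RPM1-type proteins and SnRK2 kinases, were drawn up after gene values had been seen.

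Nitrogen genes moved in both directions, 10 of 40 higher and 7 lower. Asparagine, which carries nitrogen out of ageing leaves, is made by asparagine synthetase. *asn3* (GRMZM2G053669) rose 92.7-fold, from 8.81 and 8.33 to 824 and 774 CPM (log2 fold change 6.53 ± 0.103, edgeR adjusted P = 7.38e-21), whereas GRMZM2G003762, annotated with the same enzyme activity, fell from 5766 and 5605 to 1238 and 1239 CPM. The cytosolic glutamine synthetase gene *gln2* (GRMZM2G024104) rose from 50.4 and 48.8 to 213 and 212 CPM. GRMZM2G085078, glutamate synthase, rose from 128 and 113 to 644 and 664. Nitrate reductase *NR1* (GRMZM2G568636), the entry to nitrate assimilation, fell from 816 and 824 to 286 and 276 CPM. Degradation of asparagine is begun by asparaginases, and GRMZM2G082032, annotated as an isoaspartyl peptidase of that family, dropped 95.5-fold from 215 and 226 to 1.99 and 2.59 CPM.

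The glyoxylate cycle turns the acetyl units of fatty acids into sugar precursors and is active in senescing leaves and germinating seeds. Both enzymes specific to it appeared under drought. *icl1* (GRMZM2G056369), isocitrate lyase, had 1 and 0 counts in the normal libraries and 1145 and 1028 in the drought libraries, at 190 and 177 CPM. The ratio of the pooled counts, after scaling by normalized library size, was 1753-fold, with an exact 95% interval of 314 to 69258 that covers counting error only. Malate synthase *mas1* (GRMZM2G102183) rose 153-fold from 3.06 and 1.85 to 393 and 382 CPM (log2 fold change 7.25 ± 0.111, edgeR adjusted P = 4.12e-21). GRMZM5G848768, the last step of fatty acid beta-oxidation, increased from 230 and 248 to 568 and 548 CPM. In all, 13 of 45 genes of the cycle and of beta-oxidation were higher (28.9%) and 2 lower.

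Among sucrose and starch enzymes 10 of 91 rose and 21 fell. Scaling by library size alone gave 11 and 15. Sucrose-phosphate synthase *sps1* (GRMZM5G875238), which makes sucrose in source leaves, went from 1073 and 1073 to 69.1 and 65.1 CPM (log2 fold change -4.0 ± 0.0472, edgeR adjusted P = 6.1e-23). The 3 members of highest level among those that rose encode enzymes that cleave sucrose. The sucrose synthase gene *sh1* (GRMZM2G089713) rose from 192 and 190 to 793 and 759 CPM, the invertase gene *ivr2* (GRMZM2G089836) from 92.7 and 86.1 to 413 and 397, and the cell wall invertase gene *incw1* (GRMZM2G139300) from 89.1 and 89.1 to 351 and 349. The largest single gain in CPM named here was that of *AGA1* (GRMZM2G340656), annotated as an alkaline alpha-galactosidase, an enzyme type that releases galactose from raffinose sugars, at 1186 and 1136 CPM under normal conditions and 10966 and 10515 under drought. It rose 9.25-fold (edgeR adjusted P = 3.81e-26).

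Of 22 trehalose enzyme genes, 9 were higher (40.9%) and 3 lower. Trehalose 6-phosphate is a signal of sugar status in plants. Genes annotated as trehalose 6-phosphate synthases moved both ways, *TPS9* (GRMZM2G122231) rising 12.5-fold from 26.4 and 22.4 to 305 and 309 CPM and GRMZM2G001304 falling from 28.7 and 22.7 to 1.66 and 2.76. SWEET proteins let sugars leave cells. In the list of SWEET and sucrose transporter genes 6 of 20 were higher and 3 lower. GRMZM2G168365 had 0 and 1 counts under normal conditions and 121 and 119 under drought, GRMZM2G137954 had 0 and 0 against 93 and 74, and GRMZM2G179679 fell from 64.2 and 69.2 to 3.31 and 6.04 CPM.

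**Figure D2:**
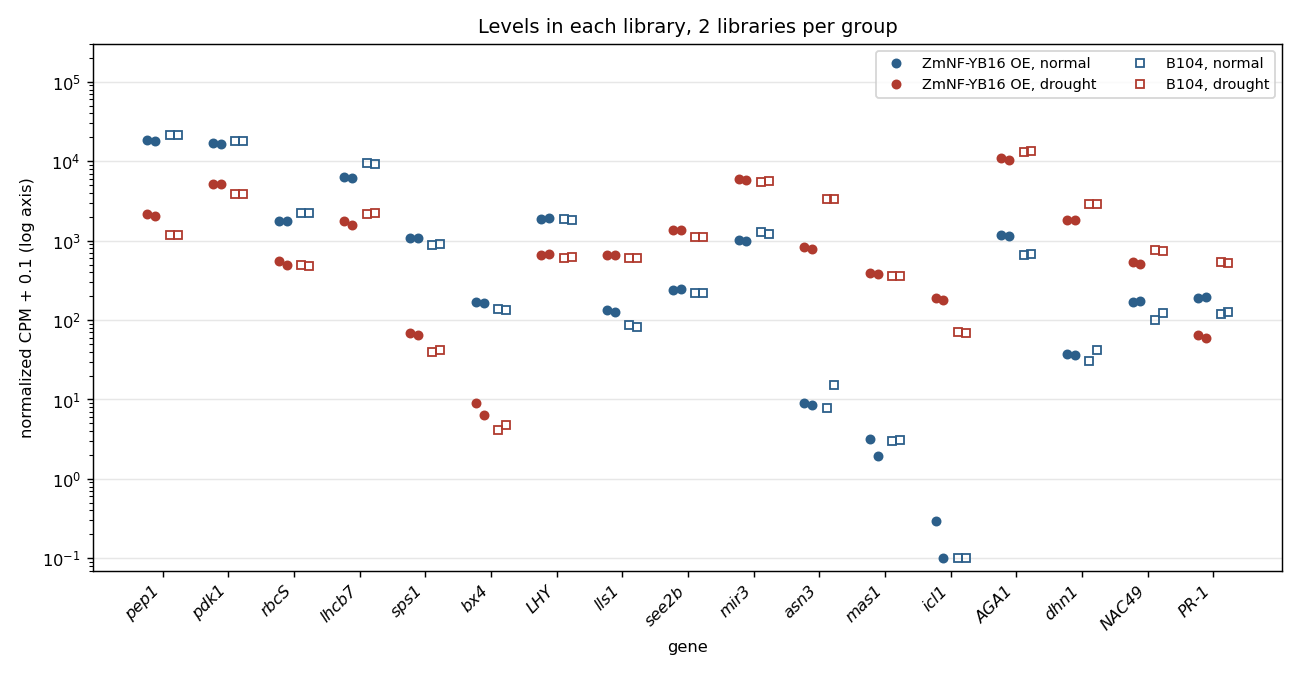
Points give normalized CPM plus 0.1, on a log axis, in each library for 17 genes, filled for *ZmNF-YB16* OE and open for B104, blue for normal and red for drought. In the line, the drought libraries of *pep1* sit at 2176 and 2038 against 18486 and 18139, those of *asn3* at 824 and 774 against 8.81 and 8.33, and *PR-1* is lower under drought in the line but higher in B104.

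Late embryogenesis abundant proteins and dehydrins, which protect drying cells, had 6 of 15 tested members higher (22 were listed) and 0 lower, with a median log2 fold change of 0.93. *dhn1* (GRMZM2G079440), also known as *rab17*, an abscisic acid marker of maize, rose 49.9-fold from 36.8 and 36.1 to 1844 and 1796 CPM (log2 fold change 5.64 ± 0.067, edgeR adjusted P = 6.4e-23). The deposited annotation gives this ID another product, and its name here is that of RefSeq. *dhn2* (GRMZM2G373522) rose from 13.4 and 13.2 to 488 and 450 CPM. Within both dehydrin genes the libraries of a condition were close together and the conditions far apart.

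Abscisic acid genes themselves were mixed. Synthesis and breakdown genes had 4 of 23 higher and 4 lower. The cleavage enzyme of the pathway, 9-cis-epoxycarotenoid dioxygenase, is encoded by several genes. GRMZM2G417954, described as *viviparous-14*, rose from 0.958 and 1.62 to 10.1 and 10.4 CPM. GRMZM2G110192, annotated with the same enzyme but described only as a hypothetical protein, fell from 1560 and 1520 to 256 and 247. Receptor genes had 2 of 10 higher, among them *PYL10* (GRMZM2G165567), from 17.4 and 18.3 to 63.4 and 49.9 CPM, and 0 lower. Protein phosphatases 2C, of which one group holds this signal in check, had 9 of 52 higher and 3 lower. *PP2C4* (GRMZM2G177386) rose from 145 and 138 to 444 and 444 CPM, and *PP2C11* (GRMZM2G308615) from 47.3 and 43 to 164 and 171. SnRK2 kinases, which act downstream, had 2 of 15 higher and 2 lower.

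Aquaporins had 3 of 28 tested genes higher and 7 lower, but 6 and 6 when scaled by library size alone. The list summed to 5586 and 5470 CPM under normal conditions and to 7183 and 6584 under drought. *PIP2-2* (GRMZM2G092125), a plasma membrane water channel, fell from 445 and 415 to 183 and 171 CPM, and *NIP2-1* (GRMZM2G028325), the silicon channel *Lsi1*, from 207 and 190 to 18.4 and 15.2. *PIP2-4* (GRMZM2G154628) rose from 5.55 and 5.55 to 40.2 and 28.6 CPM. Proline accumulates in many dry leaves. Of 7 proline genes tested, 0 were called higher and 1 lower (2 higher and 1 lower when scaled by library size alone), the fall being that of proline dehydrogenase, which breaks proline down (GRMZM2G117956, from 21.6 and 22 to 0.662 and 1.73 CPM). In B104, 4 of these genes were higher and 1 lower, but the difference between the responses passed the cutoffs in only 1 of the 7, in which the line was the lower.

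Heat shock lists stood near the share of higher members over all genes, 13.6%, 14.3% and 15.8% against 11.3%. Their shares of lower members were smaller, 4.55%, 2.04% and 5.26% against 11.9%. Small heat shock proteins had 3 of 22 higher and 1 lower, the larger HSP70, HSP90 and HSP101 types 7 of 49 higher and 1 lower, and heat stress factors 3 of 19 higher and 1 lower. Among them, GRMZM2G310431 for HSP70 rose from 336 and 334 to 880 and 804 CPM. Chaperones of the endoplasmic reticulum had 1 of 36 higher (2.78%) and 3 lower (8.33%), both below the shares over all genes.

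Enzymes against reactive oxygen and of detoxification differed by family. For superoxide dismutase, catalase and ascorbate peroxidase, 7 of 29 were lower and 1 higher (5 and 2 when scaled by library size alone). Catalase isoforms moved apart, with *cat1* (GRMZM2G088212) rising from 178 and 174 to 440 and 446 CPM and *catalase3* (GRMZM2G079348) falling from 793 and 779 to 227 and 229. Glutathione S-transferases, which conjugate toxic compounds, had 14 of 49 higher and 4 lower. *gst23* (GRMZM2G416632) rose from 94.4 and 92.1 to 530 and 459 CPM and *gst19* (GRMZM2G335618) from 117 and 121 to 470 and 482. Class III peroxidases of the cell wall and vacuole had 8 of 31 higher and 9 lower, or 9 and 6 when scaled by library size alone, and 90 were listed.

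Jasmonate genes were also divided. In the synthesis list, 4 of 29 were higher and 7 lower. This list takes in lipoxygenases in general, among them *lox3* (GRMZM2G109130), annotated as a linoleate 9S-lipoxygenase, so its counts are not confined to jasmonate. *lox10* (GRMZM2G015419), a lipoxygenase for green leaf volatiles, fell from 2890 and 2795 to 758 and 698 CPM (log2 fold change -1.97 ± 0.0267, edgeR adjusted P = 6.24e-22). Allene oxide synthase *aos1* (GRMZM2G067225) rose from 6.51 and 7.63 to 28.8 and 26.8 CPM. JAZ proteins repress the response, and 4 of 18 of their genes were higher and 2 lower, with *TIFY4* (GRMZM2G445634) going from 4.02 and 3.93 to 33.6 and 33.7 CPM and *TIFY16* (GRMZM2G101769) from 157 and 155 to 47.5 and 48.8.

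Benzoxazinoids are defence compounds of young maize. Of 12 genes tested, 6 were lower and 2 higher, with a median log2 fold change of -1.91. The cytochrome P450 genes for consecutive steps went down together. *BX4* (GRMZM2G172491) fell 21.6-fold from 168 and 162 to 8.94 and 6.21 CPM, *BX5* (GRMZM2G063756) from 133 and 131 to 12.9 and 10.2, and *BX3* (GRMZM2G167549) from 38.3 and 41.4 to 1.32 and 1.38. The glucosyltransferase gene *bx9* (GRMZM2G161335), which stores the products as glucosides, rose from 62.8 and 65.5 to 277 and 257 CPM.

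Chitinases, glucanases and pathogenesis-related (PR) proteins, by contrast, had 34 of 84 members higher (40.5%) and 14 lower. The glucanase gene GRMZM2G137535 rose 60.1-fold from 3.45 and 2.31 to 183 and 172 CPM, and the chitinase gene *chn1* (GRMZM2G453805) from 113 and 122 to 452 and 442. *PR-1* (GRMZM2G465226), a defence marker, fell from 189 and 194 to 65.1 and 59 CPM. For lipid transfer and wax genes, which serve the cuticle, 12 of 52 were higher and 7 lower. The lipid transfer protein gene GRMZM2G387360 rose 52.6-fold from 4.79 and 4.63 to 264 and 235 CPM. Phenylpropanoid and flavonoid enzymes had 29 of 138 higher and 29 lower, but 44 and 20 when scaled by library size alone. GRMZM2G382569, annotated as flavonol synthase, rose from 83.9 and 89.1 to 486 and 493 CPM, and *Hm2* (GRMZM2G131243), a homologue of a toxin-detoxifying reductase, fell from 369 and 375 to 40.2 and 33.7.

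Families of transcription factors differed in how many members moved. NAC genes, several of which drive senescence and drought responses in cereals, had 22 of 54 tested members higher (40.7%) and 6 lower, with a median of 0.65. *NAC49* (GRMZM2G347043), annotated as SNAC1, rose from 167 and 175 to 539 and 515 CPM, and *NAC75* (GRMZM2G100583) from 150 and 142 to 479 and 457. AP2/ERF genes had 27 of 79 higher and 9 lower, with GRMZM2G174917 rising 5.13-fold from 19.2 and 22 CPM and *DBP2* (GRMZM2G055204) falling from 490 and 480 to 165 and 162. WRKY genes had 19 of 64 higher and 6 lower, and MYB genes 22 of 101 higher and 10 lower. The bZIP genes, 7 of 59 higher and 10 lower, stood close to the shares over all genes.

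Clock genes fell more often than they rose, 15 of 65 against 2 (13 and 6 when scaled by library size alone). Of the members that fell, the morning-phased LHY genes are given as those of highest level. GRMZM2G014902 fell from 1893 and 1925 to 651 and 673 CPM (log2 fold change -1.53 ± 0.0303, edgeR adjusted P = 2.35e-19) and GRMZM2G474769 from 1284 and 1307 to 435 and 426. Both conditions showed close replicate pairs. Whether leaves of both conditions were taken at the same hour was not tested, since the time of day is not given.

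Growth-related lists were mixed. Expansins, xyloglucan enzymes and cellulose synthases, which loosen and build walls, had 9 of 56 higher and 11 lower (12 and 7 when scaled by library size alone). *xet1* (GRMZM2G026980) rose from 8.04 and 8.56 to 132 and 121 CPM, *expB8* (GRMZM2G013002) from 19.9 and 18.5 to 246 and 208, and the cellulose synthase-type gene GRMZM2G074546 dropped from 728 and 586 counts to 2 and 1. Histones had 14 of 70 lower and 2 higher, yet the list summed to 3633 and 3620 CPM under normal conditions and 3864 and 3737 under drought. In B104, 1 histone gene was lower and 4 were higher. The difference between the responses passed the cutoffs in 9 with the line lower and 1 with it higher, against 3.51% and 3.23% of all genes tested. Among 305 genes of cytosolic ribosomal proteins 11 were lower (3.61%) and 4 higher (1.31%), yet their median was -0.45 (-0.2 when scaled by library size alone). Cell division genes had 6 of 38 higher and 3 lower, with a median of -0.08 that became 0.17 under the same scaling. Cytokinin genes, whose hormone delays leaf senescence, had 9 of 23 lower (39.1%) and 2 higher. *HK1* (GRMZM2G151223), a cytokinin receptor gene, rose 10.3-fold from 7.66 and 5.78 to 67.4 and 73.2 CPM, and its relative *HK1b1* (GRMZM2G155767) fell from 65.5 and 59.9 to 14.1 and 14.

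NF-Y genes, the family of the transgene, were taken one by one. Of 36 tested, out of 56 listed, 4 were higher (11.1%) and 8 lower (22.2%), or 8 and 5 when scaled by library size alone. NF-YC17, NF-YA1 and NF-YA7 are the subunits that the study worked with alongside NF-YB16. The NF-YC17 gene had 4.98 and 5.55 CPM under normal conditions and 11.9 and 12.3 under drought. *ZmNF-YC17* (GRMZM2G311316) thus rose 2.3-fold, with a log2 fold change of 1.2 ± 0.24 and an edgeR adjusted P of 0.000287. *ZmNF-YA7* (GRMZM2G040349) rose from 10.2 and 6.94 to 22.2 and 26.2 CPM (log2 fold change 1.48 ± 0.179). *ZmNF-YA1* (GRMZM2G000686) fell from 51.5 and 53.4 to 21.7 and 22.6 CPM, a log2 fold change of -1.24 ± 0.113 that was -0.99 with library size alone and -0.93 with limma on FPKM. Reads of such related genes can be assigned to the wrong member.

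By subunit, 1 of 13 NF-YA genes was higher and 2 lower, 2 of 13 NF-YB genes were higher and 3 lower, and 1 of 10 NF-YC genes was higher and 3 lower. The NF-YC gene GRMZM2G089812 had the highest level, 176 and 182 CPM, and fell to 79.2 and 73 (-0.98 on the log2 scale with library size alone). *CA2P12* (GRMZM2G104396), an NF-YA gene, went from 33.1 and 39.3 to 12.3 and 13.3 CPM. *caat1* (GRMZM2G064426), an NF-YB gene, rose from 13.4 and 10.9 to 26.7 and 30.4 CPM. One NF-YB gene, GRMZM2G465977, had 11, 9, 6 and 7 counts in the libraries of the line and 0 in all 4 of B104. Another, GRMZM5G812874, had 4.02 and 2.08 CPM under normal conditions and 0.662 and 0.69 under drought in the line, and at most 0.417 in B104. The files do not tie either to *ZmNF-YB16*, and both were picked out after their values were seen.

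**Figure D3:**
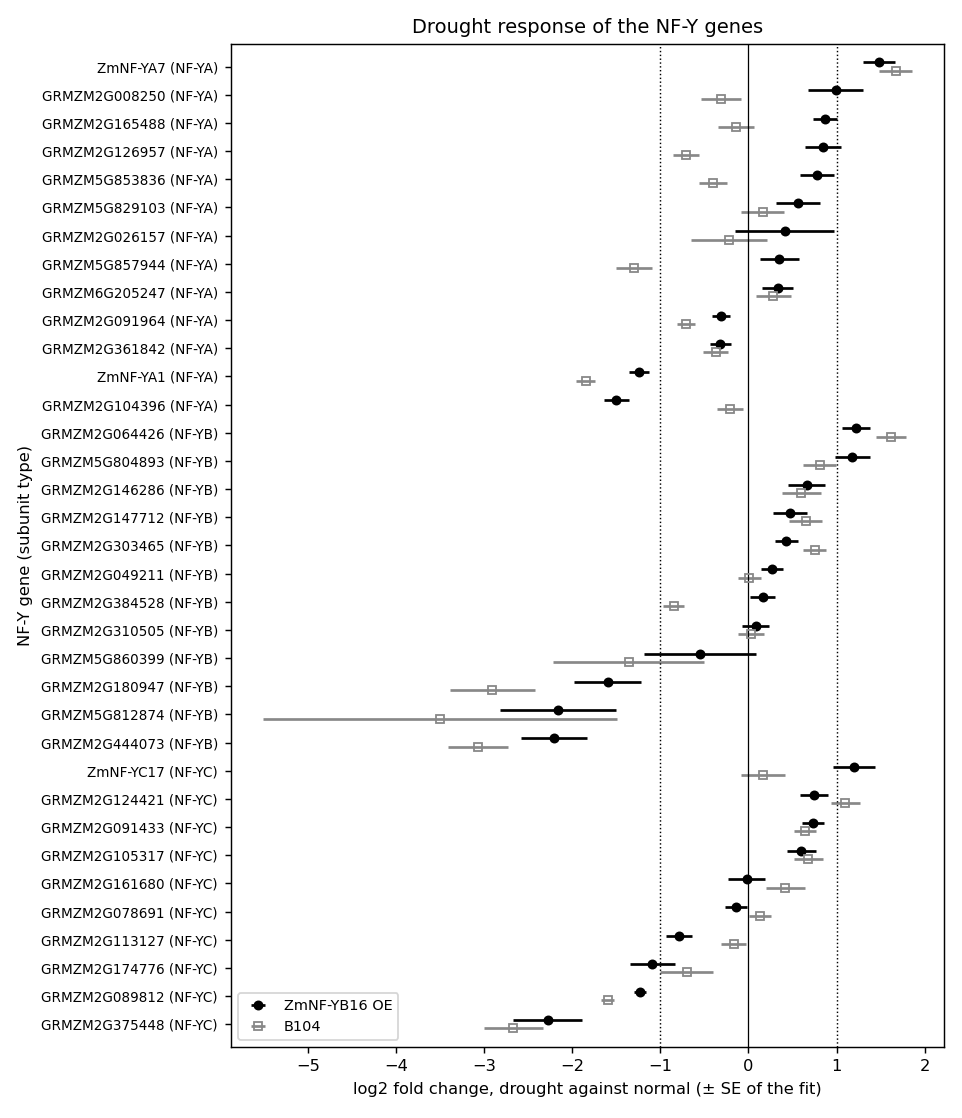
Points give the log2 fold change under drought for 35 of the 36 NF-Y genes tested, filled for *ZmNF-YB16* OE and open for B104. Bars of 1 SE are derived from the test's F statistic. GRMZM2G465977, at 0 counts in B104, is left out, and dotted lines mark -1 and 1. *ZmNF-YA7* and *ZmNF-YC17* lie above 1 in the line at 1.48 and 1.2 and *ZmNF-YA1* below -1 at -1.24. The estimates of 6 NF-YA genes, GRMZM5G857944 and GRMZM2G126957 among them, lie below 0 in B104 and above 0 in the line. Not all of these signs are distinct from 0. The edgeR adjusted P in B104 was 0.703 for GRMZM2G026157, 0.617 for GRMZM2G165488 and 0.261 for GRMZM2G008250, and in the line 0.205 for GRMZM5G857944.

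Among the 10 largest rises of annotated genes of at least 10 CPM were those of *icl1*, GRMZM2G400005, of unknown function, the SWEET gene GRMZM2G137954, GRMZM2G136567, annotated as a farnesyltransferase of the sterol pathway, and the cytochrome P450 gene GRMZM2G075461. GRMZM2G400005 had 0 and 0 counts under normal conditions and 112 and 89 under drought. GRMZM2G136567 went from 0 and 1 counts to 437 and 427. *Laccase-7* (GRMZM2G094375), from a family of oxidases that polymerize lignin, rose from 0.192 and 1.85 to 174 and 156 CPM. The others were GRMZM2G041761, the SWEET gene GRMZM2G168365, *mas1* and the RING finger gene GRMZM2G062724. Fitted folds of genes near 0 depend on the fit's prior count, so counts are given instead.

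The 10 largest falls cannot be ranked among themselves, since all ended at 8 counts or fewer. *CNR04* (GRMZM2G141526), a cell number regulator, was among them, with 88 and 76 counts under normal conditions and 0 and 0 under drought. *RR1* (GRMZM2G179827), a type-A response regulator of cytokinin signalling, had 71 and 63 counts against 0 and 0. GRMZM2G134219, annotated as a protein of phosphate starvation, had 63 and 50 against 0 and 0, and the membrane protein gene GRMZM5G866024 had 56 and 54 against 0 and 0. The cytochrome P450 gene GRMZM2G034471 went from 262 and 242 to 1.32 and 0.863 CPM. RPM1-type disease resistance genes code for immune receptors, and 6 of 31 fell and 0 rose (5 and 3 with library size alone). GRMZM2G013170 fell from 845 and 724 counts to 3 and 3, 324-fold after scaling by normalized library size with an interval of 149 to 885, and GRMZM2G455909 from 272 and 225 to 1 and 2, 205-fold with an interval of 69.9 to 999 on the same scale. The serine-glyoxylate aminotransferase-like gene GRMZM2G359559 went from 77.8 and 73.3 to 0.994 and 0 CPM, and the pno1-like gene GRMZM2G358076 from 81 and 72 counts to 0 and 1.

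Some genes were near absent in one condition. At 3 counts or fewer in both normal libraries, and at least 10 CPM under drought, were 27 genes, and 15 genes showed the reverse. The ratios that follow are of pooled counts scaled by normalized library size. Besides *icl1*, those of highest level were GRMZM2G136567, GRMZM2G041761, GRMZM2G041493, with 3 and 3 counts against 291 and 271 (75.5-fold, interval 34.5 to 207), and GRMZM2G311347, with 2 and 3 against 259 and 243 (81-fold, 34.5 to 250). Among the genes lost were the cellulose synthase-type gene GRMZM2G074546, lower 543-fold (185 to 2637), GRMZM2G339866, from 132 and 108 counts to 1 and 2 (99.2-fold, 33.5 to 484), and the thaumatin domain gene GRMZM2G346861, from 106 and 86 to 2 and 2 (59.5-fold, 22.9 to 221). In B104, GRMZM2G346861 had 148 and 94 counts under normal conditions and 2 and 5 under drought.

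The drought response of the line was then set against that of B104 in the same fit. The B104 libraries held 5448915 and 3429314 counts under normal conditions and 5452687 and 5322652 under drought. The normal B104 pair agreed least, with a correlation of log2 CPM of 0.9765 against 0.9846 to 0.987 in the other groups. Its spread relative to counting error (chi-squared per degree of freedom) was 3.353 against 1.316 to 1.529. Every difference from B104 rests in part on this pair. The difference between the responses passed both cutoffs in 709 genes in which the line was the higher (3.23% of genes tested) and in 771 in which it was the lower (3.51%). Of the 2479 genes higher under drought in the line, 1634 were also called higher in B104, 27 were called lower there, and in 407 the responses differed, with 262 stronger and 145 weaker in the line. Of the 2609 lower genes, 1725 were also called lower in B104, 17 were called higher, and 351 differed, 242 of them stronger and 109 weaker in the line. These genes were selected by their call in the line, which by itself favours a stronger response there. The same split of the genes called in B104 was not made, so the line cannot be said to respond more strongly. In the same fit, B104 had 5524 DEGs, 2663 higher and 2861 lower, against 5088 in the line. Between the line and B104, 2608 genes (11.9%) passed the cutoffs under normal conditions and 2545 (11.6%) under drought. The share of the transgene in these differences was not tested. A call in one genotype and not in the other was not taken as a difference.

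**Figure D4:**
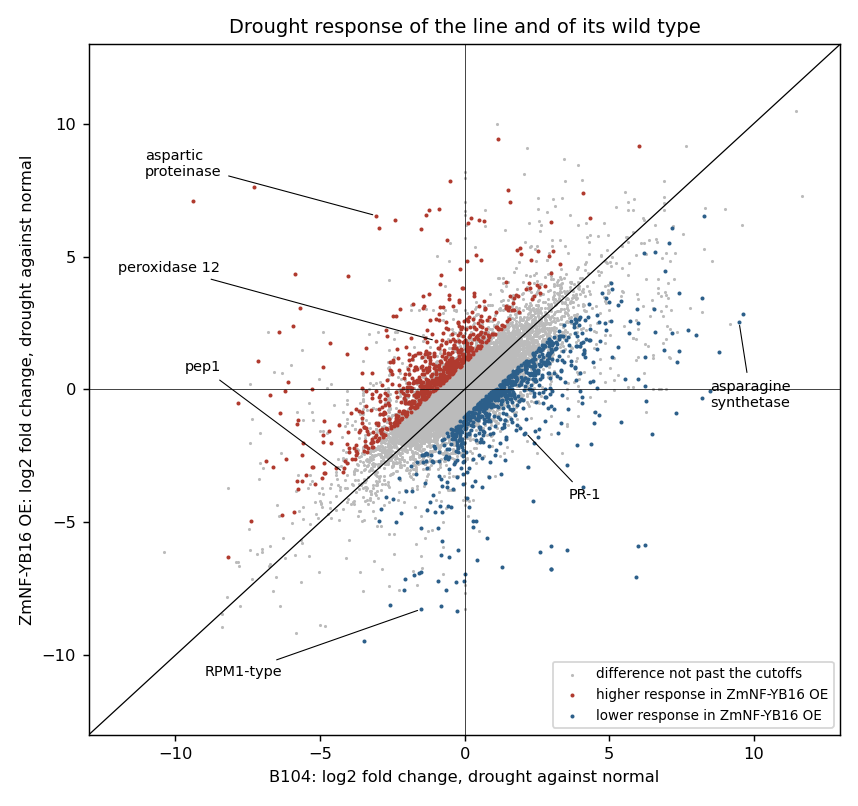
Each point is a tested gene, with its log2 fold change under drought in B104 on the x axis and in *ZmNF-YB16* OE on the y axis, coloured where the difference between them passed the cutoffs (red, higher in the line, 709 genes, blue, lower, 771 genes). *PR-1* lies at 2.10 in B104 and -1.62 in the line, and the RPM1-type gene GRMZM2G013170 at -1.51 and -8.27.

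The falls of *pep1* and *gpb1* were smaller in the line. In B104, *pep1* was reduced from 21628 and 21368 to 1170 and 1180 CPM, and its response differed by 1.07 ± 0.0274 on the log2 scale (edgeR adjusted P = 4.75e-16). For *gpb1* the difference was 1.05 ± 0.031. The medians of the light-harvesting list were -1.70 in the line and -1.98 in B104, with 57 and 61 genes lower, but only 1 gene of it had a difference past the cutoffs. Chlorophyll synthesis had 14 lower genes in the line and 21 in B104, with 1 difference in each direction.

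Rises of several stress and nitrogen genes were smaller in the line too. For *asn3* the B104 libraries went from 7.71 and 15.2 to 3375 and 3320 CPM, a difference of -1.75 ± 0.198 (edgeR adjusted P = 2.02e-06). Another asparagine synthetase gene, GRMZM2G078472, had 3 and 4 counts under normal conditions and 28 and 24 under drought in the line but rose from 0 and 1 to 616 and 659 counts in B104 (difference -6.95 ± 1.01, adjusted P = 4.66e-05). Of 40 nitrogen genes tested, 5 had a negative and 1 a positive difference past the cutoffs, against 3.51% and 3.23% of all genes tested. Of 15 LEA and dehydrin genes tested, 5 had a negative and 0 a positive difference, with 6 called higher in the line and 10 in B104. *dhn2* differed by -1.05 (adjusted P = 0.000288), *PP2C11* by -1.04 (0.000178), *sh1* by -1.37 (8.26e-13), *AGA1* by -1.11 (3.89e-15) and *NAC49* by -1.17 (9.88e-09). Each of these genes still rose in both genotypes.

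*PR-1* went in opposite directions, from 120 and 125 to 531 and 521 CPM in B104 and from 189 and 194 to 65.1 and 59 in the line (difference -3.73 ± 0.0871, edgeR adjusted P = 1.21e-16). A class III peroxidase gene, GRMZM2G103342, did the reverse, rising from 65.1 and 59.9 to 230 and 216 CPM in the line against a log2 fold change of -1.0 in B104 (difference 2.83, adjusted P = 3.32e-12). The lipoxygenase gene GRMZM5G822593 also went up in the line, from 13 and 12 to 26.2 and 28 CPM, against -1.20 in B104 (difference 2.30, adjusted P = 1.17e-07). *PIP2-4* and *Laccase-7* rose more in the line, by 1.87 (9.68e-05) and 3.33 (1.25e-05).

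Of 36 NF-Y genes tested, 7 had a positive and 1 a negative difference past the cutoffs, against 3.23% and 3.51% of all genes tested. In the NF-YA family, GRMZM5G857944 (*NF-YA13*) went from 6.51 and 8.79 to 9.44 and 9.84 CPM in the line and from 19.6 and 16.6 to 7.65 and 7.14 in B104 (difference 1.65 ± 0.302, edgeR adjusted P = 0.000545). GRMZM2G126957 (*CA2P7*) differed by 1.55 (0.00017), GRMZM2G008250 by 1.31 (0.022), GRMZM5G853836 by 1.18 (0.00203) and GRMZM2G165488 (*NF-YA11*) by 1.01 (0.00718). RefSeq places GRMZM2G008250 and GRMZM5G853836 in one gene, *NF-YA4*, so they may not be separate. *ZmNF-YC17* differed by 1.05 ± 0.35 (adjusted P = 0.0442), with 8.55 and 5.63 CPM under normal conditions and 8.51 and 7.84 under drought in B104. The NF-YB gene GRMZM2G384528 differed by 1.00 (0.00063) and *CA2P12* by -1.28 (0.000107). In 6 of the 7 genes with a positive difference both normal libraries of the line were below both of B104, the exception being *NF-YA11*.

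The widest differences came from genes near 0 in one genotype or condition. Their fitted values depend on the prior count of the fit and are no bound, so counts are given beside them. The aspartic proteinase gene GRMZM2G444623 had 2 and 1 counts under normal conditions and 186 and 186 under drought in the line, while B104 had 4, 3, 1 and 0 counts (difference 9.60 ± 1.13, edgeR adjusted P = 3.51e-06). The gibberellin receptor-type gene GRMZM2G351482 had 0 and 0 counts and then 11 and 13 in the line, against 70, 41, 15 and 16 in B104. GRMZM2G149996, annotated as an aspartic protease of guard cells, went from 151 and 130 counts to 1 and 4 in the line and had at most 2 in B104 (difference -9.57, adjusted P = 0.0012). GRMZM2G155525 stayed between 246 and 287 counts in the line, whereas B104 had 0 and 0 under normal conditions and 40 and 44 under drought. GRMZM2G474555 rose in both.

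Some of the extreme values rest on 1 library. The molybdate transporter-type gene GRMZM2G426922 had 39 and 0 counts in the drought libraries of the line, and its difference of 16.46 had an adjusted P of 1 without the former. GRMZM2G062044 had 0 and 64 counts in normal B104, and its difference of 9.02 became 0.4 without the library with 64. *TIFY29* (GRMZM2G036288) rose from 2 and 3 to 73 and 52 counts in the line, but the difference of 8.31 from B104 dropped to 4.26 with an adjusted P of 1 when the B104 library with 3 counts was left out. The RPM1-type gene GRMZM2G455321 fell from 58 and 52 to 2 and 0 counts in the line, with a difference of -8.91 whose adjusted P was 0.0616 or 0.0609 without either drought library of B104.

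Few genes were confined to 1 group of genotype and condition. Genes read in both conditions of the line and not in B104, such as GRMZM2G465977, are not counted here. At more than 3 counts in both libraries of a group, at least 10 CPM, and at 3 or fewer in the other 6 libraries were GRMZM2G455321 and the RPM1-type gene GRMZM2G455909 in normal *ZmNF-YB16* OE, GRMZM2G175165 in drought *ZmNF-YB16* OE, and 0 genes in either B104 group. GRMZM2G013170 missed this only through the 5 counts of a normal B104 library. These 3 RPM1-type genes thus had reads in the line under normal conditions and 5 or fewer counts in each of its drought libraries and of the B104 libraries.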

How the data were processed

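Leaf RNA was sequenced in 2 normal and 2 drought libraries of *ZmNF-YB16* OE and of B104. The authors cleaned the reads with SOAPnuke, aligned them with HISAT and Bowtie2 to the B73 V3 reference, and deposited RSEM expected counts and FPKM values per gene. Genes below 0.01 FPKM are not listed in the files, and a missing gene was taken as 0. The deposited expected counts were rounded to whole numbers here. The authors' own DESeq2 comparisons were not used.

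Counts were scaled with TMM, filtered with filterByExpr (21970 of 32617 genes kept) and fitted over the 8 libraries with edgeR 4.0.16 in R 4.3.3. Normalized CPM use the same library sizes. DEGs were those whose log2 fold change exceeded 1 in size with a Benjamini-Hochberg adjusted P under 0.05. The response of B104 was compared by an interaction contrast. The error given as SE is the size of the log2 fold change divided by the square root of the test's F statistic. It is not a standard error reported by the fit, and it means little for genes near 0 counts. P values rest on the spread between the 2 libraries within groups, estimated over all 8 libraries and moderated across genes. The libraries are of pooled leaves (the study's methods describe replicated field plots but not which plots gave each library). An exact permutation test of 2 against 2 cannot go below 0.333. Ratios of pooled counts were scaled by normalized library size, and their intervals are exact (scipy 1.17.1) and cover counting error only. On simulated data, edgeR recovered 200 of 200 genes changed 4-fold with 3 false calls, and 111 of 200 changed 1.5-fold by adjusted P alone. The simulation gave all genes the same dispersion and changed only genes with enough counts, as many up as down. Far fewer genes changed in it than in the data, so its rates need not hold for the results above.

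Gene lists were built from words of the deposited annotation, which covered 30255 IDs. RefSeq names matched 18120 IDs by gene ID or synonym. Its assembly, Zm-B73-REFERENCE-NAM-5.0, is not the build of the files, so no coordinates are given. The members and lists were chosen with earlier results of these data known. The genes named are the studied NF-Y subunits, the 10 largest rises and falls among annotated DEGs with groups that did not overlap and at least 10 CPM, examples from the 3 called members of highest CPM per list and direction, and 5 genes per direction for the difference from B104 and for genes at 3 counts or fewer in one condition. NF-Y members were also described one by one. Alternatives were DESeq2 1.42.0, other size factors, library size alone, no filter, the line's 4 libraries only, an adjusted P of at most 0.001, log2(FPKM + 1) values in limma 3.58.1, the replicate number as a block, and leaving out each library. Deviations of same-numbered libraries of the line had a correlation of -0.0058 over 13286 genes, so the numbers were not taken as pairs.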

Additional observations from a re-analysis of the deposited data

Results flagged for a closer look

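Of 125 genes named in the text and tested, 45 had a drought response that differed between *ZmNF-YB16* OE and B104 past both cutoffs of edgeR's interaction test, 25 with the line higher and 20 with the line lower. All values are differences of the log2 fold changes, the line minus B104.

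Among genes that fell in both genotypes and fell less in the line, the response differed for *pep1* (GRMZM2G083841) by 1.07, *gpb1* (GRMZM5G845611) by 1.05, *Hm2* (GRMZM2G131243) by 1.61 and GRMZM2G001304 by 1.62. Genes that rose further in the line, or were called higher there, were GRMZM2G035599 by 2.01, *PIP2-4* (GRMZM2G154628) by 1.87, *xet1* (GRMZM2G026980) by 1.43, GRMZM5G891282 by 1.15, *Laccase-7* (GRMZM2G094375) by 3.33, GRMZM2G136567 by 3.12 and GRMZM2G400005 by 8.27. Opposite directions were seen for GRMZM2G103342 by 2.83, GRMZM5G822593 by 2.30 and *PR-1* (GRMZM2G465226) by -3.73. NF-Y genes differed as well, *NF-YA13* (GRMZM5G857944) by 1.65, *CA2P7* (GRMZM2G126957) by 1.55, GRMZM2G008250 by 1.31, GRMZM5G853836 by 1.18, *ZmNF-YC17* (GRMZM2G311316) by 1.05, *NF-YA11* (GRMZM2G165488) by 1.01, GRMZM2G384528 by 1.00 and *CA2P12* (GRMZM2G104396) by -1.28.

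Rises that were smaller in the line were those of *PP2C11* (GRMZM2G308615) by -1.04, *dhn2* (GRMZM2G373522) by -1.05, *aos1* (GRMZM2G067225) by -1.10, *AGA1* (GRMZM2G340656) by -1.11, *NAC49* (GRMZM2G347043) by -1.17, *gst19* (GRMZM2G335618) by -1.26, *sh1* (GRMZM2G089713) by -1.37, GRMZM2G085078 by -1.52, *asn3* (GRMZM2G053669) by -1.75, GRMZM2G078472 by -6.95 and GRMZM2G474555 by -7.40. Genes that fell in the line, and fell less or did not pass the cutoffs in B104, differed too, GRMZM2G359559 by -5.10, *CNR04* (GRMZM2G141526) by -5.97, GRMZM2G358076 by -6.27 and GRMZM2G013170 by -6.77. The widest differences, among genes with few or no counts in a group, were GRMZM2G426922 by 16.46, GRMZM2G444623 by 9.60, GRMZM2G062044 by 9.02, GRMZM2G351482 by 8.78, *TIFY29* (GRMZM2G036288) by 8.31, GRMZM2G155525 by -8.53, GRMZM2G455321 by -8.91 and GRMZM2G149996 by -9.57. Of these, GRMZM2G426922, GRMZM2G062044, *TIFY29* and GRMZM2G455321 lose the call when single libraries are left out, with adjusted P values of 1, 1, 1 and 0.0616.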

How the results depend on the processing

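Of the 6 counts of calls, 76 values under the alternatives stayed within 1.5 times and 5 did not. The lower DEGs of the line numbered 1492 with limma on log2(FPKM + 1). The difference from B104 had 511 lower genes with DESeq2, and 620 genes in all, 273 higher and 347 lower, at an adjusted P of at most 0.001. Leaving out each library of the line in turn gave 4733 to 4832 DEGs, 2267 to 2392 higher and 2402 to 2492 lower. Leaving out each of the 8 libraries gave 1242 to 1426 genes that differ from B104, 567 to 670 higher and 640 to 774 lower. With the replicate block, DEGs of the line numbered 5050, of which 5018 were shared, and 1488 genes differed from B104. The same-numbered libraries were not pairs by their correlation. DESeq2 gave 4431 DEGs in the line, 4366 of them shared.

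Scaling bears most on direction. With library size alone the median of all genes rose by 0.252 on the log2 scale and with limma on FPKM by 0.207, and 64.9% and 64.3% of the calls were higher, against 48.7%. The normal libraries had TMM factors of 0.934 and 0.940 and the drought libraries 1.11 and 1.13. The alternatives were applied to 248 genes, namely the largest changes, the called examples of each list and the studied NF-Y subunits. Some genes named in the text are not among them. No call of these 248 genes changed its sign. The medians of 11 of the 49 lists, which lay between -0.22 and -0.08, turned positive with library size alone. Over the 248 genes, 2817 values kept their side of the cutoffs and 155 lost the call. For the 10 genes chosen by their difference from B104, 133 kept it and 17 lost it. Of the medians of the 49 lists, 170 values moved by less than the spread and 124 by more. The cause was not tested. Changes of 1.5-fold lie under the 2-fold cutoff whatever the depth.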
